A study of Saccharomyces cerevisiae with 18 samples.

Results

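The genes described here encode enzymes of the nucleotide pathways that feed DNA synthesis in *S. cerevisiae*: *CDC21* (YOR074C), *DFR1* (YOR236W), *DUT1* (YBR252W), *DCD1* (YHR144C), *CDC8* (YJR057W), *GUK1* (YDR454C), *URA6* (YKL024C), *YNK1* (YKL067W), *AAH1* (YNL141W) and *APT1* (YML022W). They were chosen as a named list of 10 genes, and each is represented by the probe set that matches its symbol alone. All 10 were found among the 5656 genes tested. 9 of them have 1 such probe set. *CDC21* has 2, of which the one of higher mean was used. The other was dim, between 1.67 and 2.85 in intensity on all arrays.

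Deoxynucleotides are made by reduction of ribonucleoside diphosphates by ribonucleotide reductase, and the enzymes described here act around that step. Thymidylate has a route of its own. Deaminases and a pyrophosphatase produce dUMP, thymidylate synthase methylates it with a folate cofactor, and kinases then raise the nucleotides to the triphosphates that polymerases use. The dUTP pyrophosphatase also keeps uracil out of DNA. Purine salvage enzymes recover bases such as adenine in place of synthesis from simple precursors. Several genes of the thymidylate route, such as *CDC8* and *CDC21*, are known as genes transcribed at the G1/S boundary of the yeast cell cycle.

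Transcript levels were measured on 18 arrays, 1 for each culture, in 6 groups of 3 biological replicates. All cultures were the haploid wild-type strain DBY747 (*MAT*a, with *his3*, *leu2*, *ura3* and *trp1* mutations), grown in YPD to mid-log phase. Irradiated cells received 210 Gy of γ-radiation, with 13 min of incubation afterwards, and were set against mock-irradiated cells. The enediynes, antibiotics that attack deoxyribose in DNA and break its strands, were given for 15 min. Calicheamicin was used at 1 nM, esperamicin A1 at 3 nM and neocarzinostatin at 4 nM, and treated cells were set against cells that received the methanol vehicle. The doses had been set for 20 to 25% lethality, and each agent was used at 1 dose and 1 time. The doses in nM differ between the enediynes, so their values stand side by side and no test was made between them.

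The values are array intensities, and the number of arrays limits their precision. Array medians lay between 15.3 and 16.8. Of the mating-type genes, the MATa genes *MFA1* and *MFA2* lay between 695 and 1819, *STE2*, *BAR1* and *AGA2* between 34.3 and 132 and *STE6* between 5.59 and 17.9, against 7.67 to 22.1 for the MATalpha genes *MF(ALPHA)1*, *MF(ALPHA)2* and *STE3* and 37.1 to 61.7 for *SAG1*. Intensities of different probe sets cannot be set against each other, so this is a description and settles no mating type. The genes mutated in the strain were also measured, with *HIS3*, *LEU2* and *TRP1* between 31.8 and 150 and *URA3* no higher than 19.1, where a mutant allele may still be transcribed. Methanol replicate 1 stood apart. Its 5′ minus 3′ log2 difference of the actin control probe sets, a sign of RNA quality, was -3.59, against -2.34, -1.86 and -1.53 on the esperamicin A1 arrays and -1.34 to -0.69 on the remaining ones, and its mean correlation with the other methanol arrays was 0.958. It held the highest of the 3 methanol values for *CDC8*, *DUT1*, *DCD1*, *DFR1*, *GUK1* and *URA6* and the lowest for *CDC21*, *AAH1* and *APT1*. Values against methanol are therefore also given without it for most of the genes.

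γ-radiation was set against mock irradiation to ask which genes respond to broad oxidative damage. None of the 10 genes passed limma's test, for which a gene had to reach a 1.5-fold change and an adjusted p (Benjamini-Hochberg, over all genes) no higher than 0.10. Of all genes tested, 51 passed (0.902%). *CDC8*, *CDC21* and *YNK1* had the highest log2 fold changes, 0.62, 0.61 and 0.58, and *AAH1* the lowest, -0.93. At an unadjusted p under 0.05 there were 3 of the 10 genes (*CDC8*, *CDC21* and *YNK1*) and 492 of all genes (8.7%). The irradiated and mock arrays did not overlap for *CDC8*, *CDC21*, *YNK1* and *GUK1*, 4 of 10 genes, against 14.7% of all genes. The median log2 fold change of the 10 genes was -0.23, against -0.04 for all genes, and the median of its size without sign was 0.37, against 0.16. In mid-log cultures a smaller share of cells in a stage of the cycle and less mRNA per cell cannot be told apart.

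**Figure D1:**
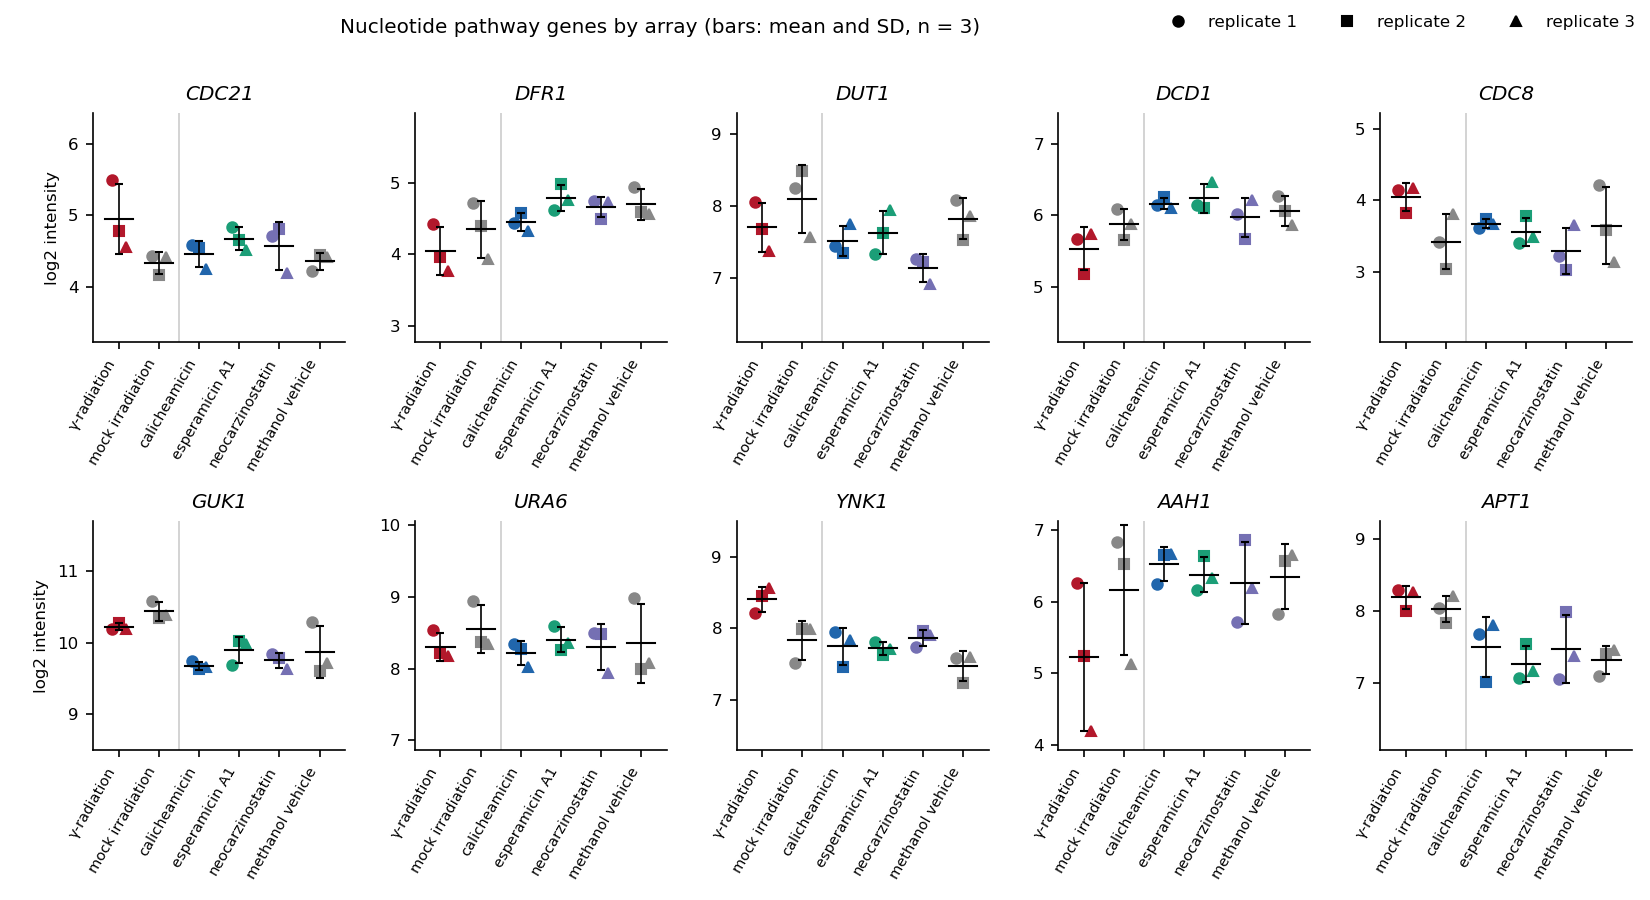
Log2 intensity of each of the 10 genes on each array, with 1 panel a gene; each vertical axis covers the same span of log2 units, so spreads can be compared but not levels. Marker shape gives the replicate, bars the mean and SD of 3 arrays, and the grey line parts γ-radiation and its mock control from the enediynes and their methanol control. *YNK1* lay above all other groups after γ-radiation, and *AAH1* was widely spread in both the irradiated and mock groups.

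The enzymes of the thymidylate and dUTP route did not move one way after γ-radiation. *CDC21* encodes thymidylate synthase. Its intensity was 45.0, 27.6 and 23.5 in irradiated cells, against 21.5, 17.9 and 21.4 in mock-irradiated cells. The 3 irradiated arrays all lay above the 3 mock arrays, with replicate 1 far above the other two. The log2 fold change was 0.61 (standard error 0.21, adjusted p = 0.378 from limma), and 0.33 without γ-radiation replicate 1. It rests on 1 of the 2 probe sets, since the dim one had 0.07 (standard error 0.15). *DFR1* encodes dihydrofolate reductase, which regenerates the folate used by thymidylate synthase. It had 21.4, 15.6 and 13.6 in irradiated cells, against 26.4, 21.0 and 15.2 in mock-irradiated cells. The groups overlapped, and the log2 fold change was -0.30 (standard error 0.20, adjusted p = 0.718). On γ-radiation replicates 2 and 3 and on mock replicate 3 *DFR1* was dim, below the array median.

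*DUT1* encodes dUTP pyrophosphatase, which hydrolyses dUTP to dUMP. Its intensity was 266, 205 and 166 in irradiated cells, against 304, 358 and 190 in mock-irradiated cells. Only the irradiated replicate 3 lay below every mock array, and the log2 fold change was -0.39 (standard error 0.24, adjusted p = 0.697). *DCD1* encodes dCMP deaminase, which converts dCMP to dUMP. Here the intensities were 50.9, 36.4 and 53.4 with γ-radiation and 67.9, 50.4 and 58.7 with mock irradiation. The groups overlapped, and the difference was -0.34 on the log2 scale (standard error 0.19, adjusted p = 0.652). *CDC21* thus stood above 0 and the other 3 genes of the route below it, with a median of -0.32 for the 4.

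Of the kinases, *YNK1* and *CDC8* had the higher values after γ-radiation. *YNK1* encodes nucleoside diphosphate kinase, which makes triphosphates from diphosphates. It had intensities of 298, 349 and 378 in irradiated cells, against 183, 255 and 253 in mock-irradiated cells. Every irradiated array lay above every other array of the series. The log2 fold change was 0.58 (standard error 0.17, 95% interval 0.22 to 0.94), with the smallest p of the 10 genes (adjusted p = 0.231 from limma), and its fold change of 1.49 lay just below the threshold of 1.5, where that of *CDC21*, 1.52, lay just above it. *CDC8* encodes thymidylate kinase, which phosphorylates dTMP. Its intensity was 17.8, 14.2 and 18.1 with γ-radiation and 10.7, 8.28 and 14.0 with mock irradiation. The groups did not overlap, but by a narrow margin, since the lowest irradiated array and the highest mock array were next to each other. The log2 fold change was 0.62 (standard error 0.24, adjusted p = 0.454). *CDC8* was dim: it lay between 8.14 and 18.6 on all arrays, near or below the array medians.

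The genes of the other nucleoside monophosphate kinases, *GUK1* and *URA6*, had values slightly below those of mock irradiation. *GUK1* encodes guanylate kinase, which phosphorylates GMP and dGMP. It had 1171, 1243 and 1172 in irradiated cells, against 1538, 1297 and 1342 in mock-irradiated cells. All irradiated arrays lay below all mock arrays, yet the log2 fold change was -0.22 (standard error 0.16, adjusted p = 0.765), and its 95% interval of -0.56 to 0.13 stayed inside a 1.5-fold change. No other of the 10 genes had such an interval in this comparison. *URA6* encodes uridylate kinase, which phosphorylates UMP. Its intensity was 371, 297 and 289 with γ-radiation and 492, 330 and 327 with mock irradiation. The groups overlapped, and the difference was -0.25 on the log2 scale (standard error 0.24, adjusted p = 0.843). With 1 array left out the log2 fold changes of *URA6* lay between -0.36 and, without mock replicate 1, -0.051, those of *DFR1* between -0.51 and -0.11, of *DUT1* between -0.66 and -0.20 and of *DCD1* between -0.45 and -0.17, and none passed.

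The purine salvage genes *AAH1* and *APT1* had log2 fold changes of opposite sign. *AAH1* encodes adenine deaminase, which converts adenine to hypoxanthine. Its intensity was 77.0, 37.7 and 18.4 in irradiated cells, against 114, 92.1 and 35.1 in mock-irradiated cells. The groups overlapped, and both ran over a wide span, with replicate 3 the lowest in each. The log2 fold change of -0.93 had a standard error of 0.45 and did not pass the test (95% interval -1.88 to 0.03, adjusted p = 0.604 from limma). It was -0.41 without γ-radiation replicate 3, -0.59 without mock replicate 1, -1.44 without γ-radiation replicate 1 and -1.44 without mock replicate 3, and did not pass in any of these. *APT1* encodes adenine phosphoribosyltransferase, which makes AMP from adenine. It had 315, 256 and 309 with γ-radiation and 263, 229 and 296 with mock irradiation, so that the groups overlapped. Its log2 fold change was 0.16 (standard error 0.23, adjusted p = 0.912).

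**Figure D2:**
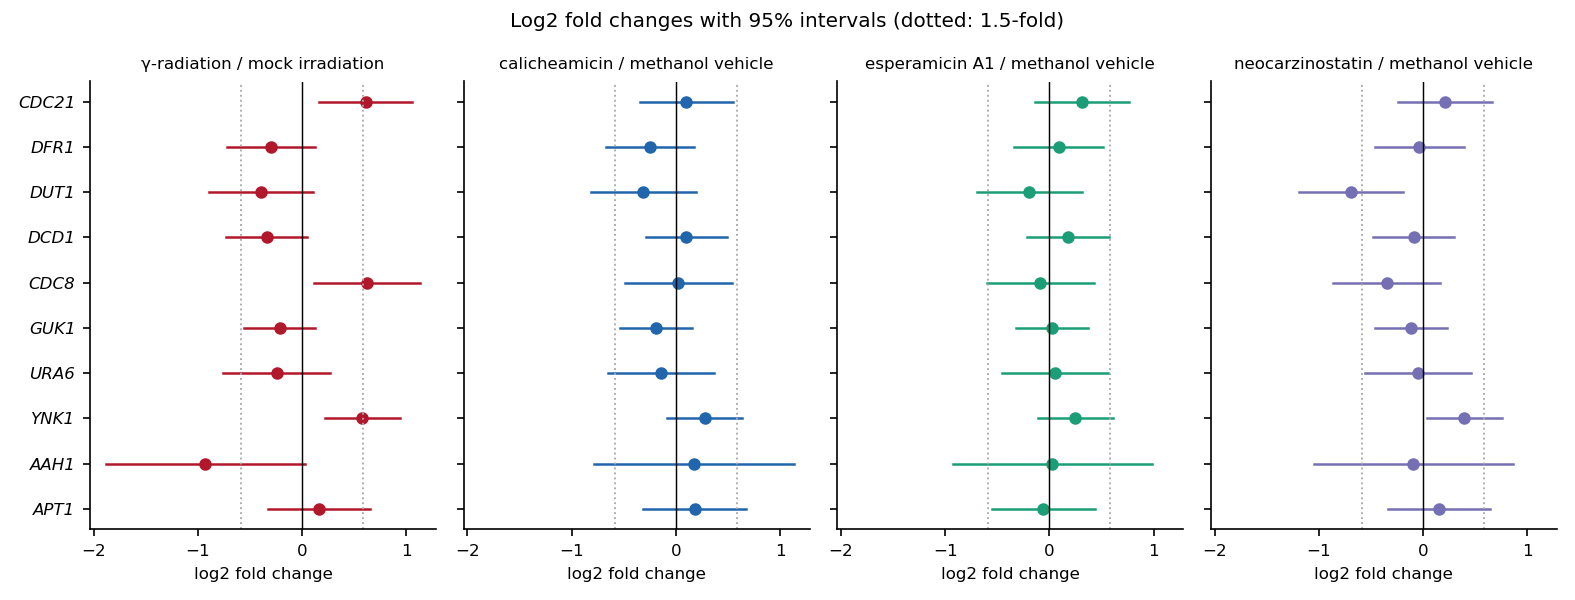
Log2 fold change of each of the 10 genes for γ-radiation against mock irradiation and for each enediyne against methanol, with limma's 95% interval (3 arrays in each group). Dotted lines mark a 1.5-fold change; the interval of *AAH1* is the widest in each panel, and intervals that leave 0 belong to *CDC21*, *CDC8* and *YNK1* for γ-radiation and to *DUT1* and *YNK1* for neocarzinostatin.

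Whether *AAH1* passed depended on the fit, in part on whether irradiated and mock arrays were paired by replicate number. Over all genes, the deviations of irradiated and mock arrays with the same number from their group means were correlated, at 0.65, 0.50 and 0.67 for replicates 1, 2 and 3. Within a number, *AAH1* was lower in irradiated than in mock-irradiated cells in 3 of 3 replicates, by log2 differences of -0.56, -1.29 and -0.93. When replicate number was blocked separately in each family of agents and control, the log2 fold change kept its value of -0.93, the standard error was 0.18 and *AAH1* passed the test (adjusted p = 0.0161 from limma), in a fit that called 129 genes (2.28%). It also passed in the local pooled error test, the test named in the study's methods, here in a version written from its description. The difference of medians was -1.29 (adjusted p = 0.0376 from that test), and 35 genes passed (0.619%). That test gave *AAH1* a standard error of 0.34, against 0.45 in limma without the block. *AAH1* had the largest SD within groups of the list, 0.65. Whether the smaller standard error is apt for so variable a gene was not tested. The study named *CDC8* and listed *AAH1* from these same arrays, so their values are not independent of that choice.

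The paired differences of the other genes also kept 1 sign each, so that 10 of 10 genes did, against 44% of all genes. The genes were chosen with earlier results of these data known, so this count is a description and no test. In all 3 replicates *CDC21*, *CDC8*, *YNK1* and *APT1* were higher in irradiated than in mock-irradiated cells, and *DFR1*, *DUT1*, *DCD1*, *GUK1* and *URA6* lower. The closest set belonged to *APT1*, at 0.26, 0.16 and 0.06, and *YNK1* had 0.70, 0.45 and 0.58. *CDC21* ran from 1.06 in replicate 1 over 0.62 in replicate 2 to 0.14 in replicate 3. With the block, *YNK1* had an adjusted p of 0.0544, but its fold change stayed below 1.5. *CDC21* had an adjusted p of 0.109 and *CDC8* 0.233, and neither passed.

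**Figure D3:**
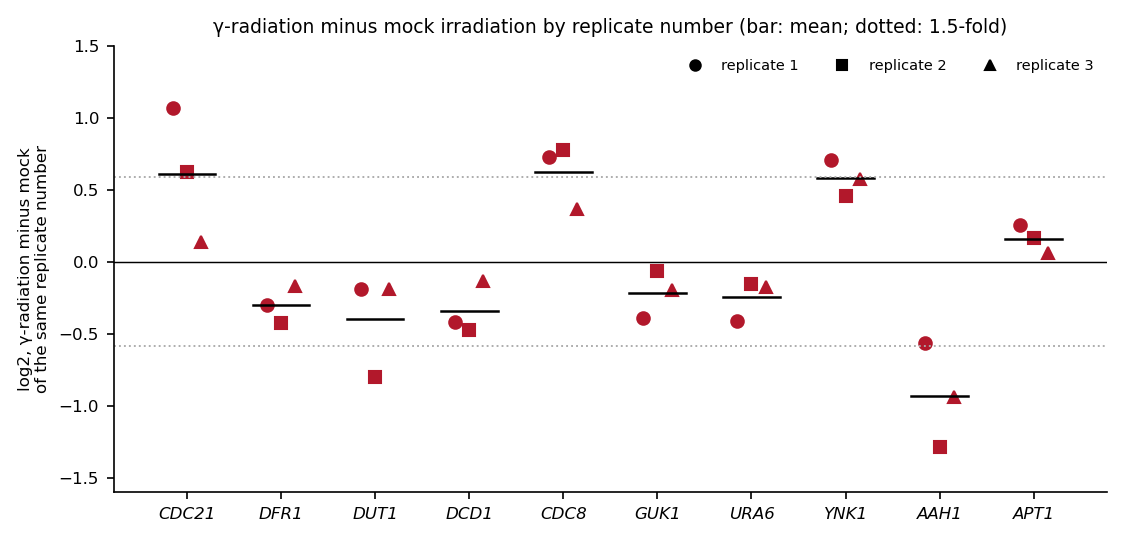
Difference in log2 intensity between the irradiated array and the mock array of the same replicate number, for each of the 10 genes. Marker shape gives the replicate, bars the mean and dotted lines a 1.5-fold change; each gene has its 3 points on 1 side of 0, and the lowest point is *AAH1* in replicate 2, at -1.29.

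Other controls and weights also changed calls for γ-radiation. With all 6 control arrays, mock and methanol, as the control, *YNK1* passed (log2 fold change 0.76, adjusted p = 0.0355, with 80 genes or 1.41% called). The methanol arrays are not the control of irradiation, and *YNK1* was lower there than in mock-irradiated cells (log2 fold change -0.36). With arrays weighted in limma by how closely they followed their group means, *CDC8* (0.65, adjusted p = 0.0639), *DUT1* (-0.59, adjusted p = 0.0987) and *AAH1* (-1.17, adjusted p = 0.0574) passed, among 227 genes (4.01%). There γ-radiation replicate 2 had a weight of 3.09, against 0.58 and 0.62 for replicates 1 and 3.

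Each enediyne was set against methanol to ask which genes respond to damage aimed at DNA. None of the 10 genes passed for calicheamicin, esperamicin A1 or neocarzinostatin, and neither did any other gene (limma, 0 genes, 0%). An unadjusted p under 0.05 was reached by 0, 0 and 2 of the 10 genes, and by 220 (3.89%), 207 (3.66%) and 464 (8.2%) of all genes. Arrays did not overlap between enediyne and methanol for 0, 2 and 2 of the 10 genes, and for 9.28%, 7.07% and 11.5% of all genes. A 2-fold change in either direction lay outside the 95% interval for 9, 10 and 8 of the 10 genes, and a 1.5-fold one for 4, 5 and 4. The local pooled error test called 0 of the 10 genes for each enediyne, and 4, 5 and 8 of all genes. These comparisons share the methanol arrays, and so does every value below.

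*DUT1* had the lowest value of the list, with neocarzinostatin. Its intensity was 154, 149 and 121 with neocarzinostatin, against 272, 185 and 231 with methanol. All neocarzinostatin arrays lay below all methanol arrays. It had a log2 fold change of -0.69 (95% interval -1.19 to -0.19), which did not pass (adjusted p = 0.534 from limma), and was -0.56 without methanol replicate 1. With calicheamicin *DUT1* had 174, 163 and 214, a log2 fold change of -0.31 against methanol, and with esperamicin A1 it had 161, 197 and 245, a log2 fold change of -0.19. Without methanol replicate 1 these were -0.18 with calicheamicin and -0.062 with esperamicin A1.

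*YNK1* was above 0 with each enediyne. It had 248, 177 and 228 with calicheamicin, 225, 199 and 210 with esperamicin A1 and 214, 248 and 240 with neocarzinostatin, against 192, 151 and 194 with methanol. Except for calicheamicin replicate 2, every enediyne array lay above every methanol array. The log2 fold changes were 0.28, 0.25 and 0.40 (standard error 0.17 each), with adjusted p = 0.923, 0.999 and 0.577 from limma. For the mean of the enediynes the log2 fold change was 0.31 (standard error 0.14, adjusted p = 0.817). It was the only one of the 10 genes with an unadjusted p under 0.05 there, as 5.73% of all genes had.

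*CDC21* also stood above methanol on most enediyne arrays. It had 23.9, 23.4 and 19.0 with calicheamicin, 28.6, 25.3 and 22.9 with esperamicin A1 and 26.2, 28.0 and 18.3 with neocarzinostatin, against 18.6, 21.7 and 21.3 with methanol. Only the esperamicin A1 arrays did so without overlap. They are also the arrays with the actin differences of -2.34 to -1.53. Alternative settings with all arrays kept, among them the actin difference as a covariate, gave esperamicin A1 log2 fold changes between 0.08 and 0.32. None passed. In the main limma fit the log2 fold changes with calicheamicin, esperamicin A1 and neocarzinostatin were 0.10, 0.31 and 0.21 (standard error 0.21 each). None passed (adjusted p = 0.969, 0.999 and 0.830). Without methanol replicate 1 they were 0.03, 0.24 and 0.14. The dim probe set of *CDC21* had 0.10, -0.15 and 0.14 with all arrays (standard error 0.15 each).

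*CDC8* had no common sign. Its intensity was 12.2, 13.3 and 12.8 with calicheamicin, 10.6, 13.8 and 11.2 with esperamicin A1 and 9.31, 8.14 and 12.6 with neocarzinostatin, against 18.6, 11.97 and 8.86 with methanol. The methanol arrays spread wider than those of any enediyne, and replicate 1 held the highest value of all arrays. The log2 fold changes were 0.02, -0.09 and -0.35 (standard error 0.24 each), and 0.31, 0.20 and -0.07 without methanol replicate 1.

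The remaining genes had 95% intervals against methanol that include 0, which does not show that they were unchanged. For *AAH1* the interval reached a 2-fold change with calicheamicin (-0.78 to 1.13) and with neocarzinostatin (-1.05 to 0.86). *AAH1* had intensities of 75.9, 101 and 102 with calicheamicin, 71.8, 99.9 and 80.8 with esperamicin A1 and 52.7, 116 and 73.4 with neocarzinostatin, against 57.0, 95.4 and 100.3 with methanol. Every enediyne group overlapped methanol. In the order calicheamicin, esperamicin A1 and neocarzinostatin, *AAH1* had log2 fold changes of 0.17, 0.03 and -0.09 (standard error 0.45 each), and -0.086, -0.23 and -0.35 without methanol replicate 1. *APT1* had 0.18, -0.06 and 0.15, and *DCD1* had 0.10, 0.18 and -0.09 (0.20, 0.28 and 0.014 without that array). *DFR1* had -0.25, 0.09 and -0.04 in the same order (-0.13, 0.21 and 0.085 without it). *GUK1* had -0.19, 0.03 and -0.12, and *URA6* had -0.14, 0.05 and -0.05. *GUK1* and *URA6* were above methanol with every enediyne once methanol replicate 1 was left out, at 0.015, 0.23 and 0.09 for *GUK1* and 0.18, 0.37 and 0.27 for *URA6*, again without passing.

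The γ-radiation effect minus the mean enediyne effect was tested directly. None of the 10 genes passed, and 19 of all genes did (0.336%). *AAH1* had the largest difference, -0.96 on the log2 scale (standard error 0.59, adjusted p = 0.729 from limma). With the same replicate block it passed at the same value (adjusted p = 0.0981), in a fit that called 48 genes (0.849%). *CDC8* had a difference of 0.76 (standard error 0.31, adjusted p = 0.697) and was the only one of the 10 genes with an unadjusted p under 0.05, as 7.11% of all genes had. Without methanol replicate 1 the difference was 0.48 for *CDC8* (adjusted p = 0.774) and -0.71 for *AAH1* (adjusted p = 0.852), while that of *URA6* was -0.52, against -0.20 with all arrays, and that of *GUK1* -0.33, against -0.12. *DCD1* had -0.41 (adjusted p = 0.723) and *CDC21* 0.40 (adjusted p = 0.780). For *YNK1* the difference was 0.27 (95% interval -0.19 to 0.74), and for *DUT1* 0.00 (-0.64 to 0.65).

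The methanol and mock arrays are controls of different agents, and more genes separated them than separated any agent from its control: 491 of all genes passed (8.68%), of which 316 were lower with methanol (5.59%) and 175 higher (3.09%). Among the 10 genes only *APT1* passed. Its intensity was 137, 168 and 175 with methanol, against 263, 229 and 296 with mock irradiation. The groups did not overlap, and the log2 fold change was -0.71 (standard error 0.23, adjusted p = 0.0761 from limma). The call ended without methanol replicate 1 (-0.61, adjusted p = 0.189) or 2 (-0.75, adjusted p = 0.122) and without mock replicate 1 (-0.71, adjusted p = 0.138), 2 (-0.81, adjusted p = 0.116) or 3 (-0.62, adjusted p = 0.187). *GUK1* had 1251, 782 and 842 with methanol, against 1538, 1297 and 1342 with mock irradiation, again without overlap. Its log2 fold change was -0.57, with the smallest p of the list (adjusted p = 0.0454 from limma), but it was less than a 1.5-fold change. *APT1* and *GUK1* were the only 2 of the 10 genes with an unadjusted p under 0.05, reached by 23.1% of all genes, and the only 2 without overlap, also 23.1%. Without methanol replicate 1 the log2 fold change of *GUK1* was -0.78 and *GUK1* passed (adjusted p = 0.00608 from limma). It also passed without mock replicate 2 (-0.62, adjusted p = 0.0896) or 3 (-0.59, adjusted p = 0.0828). Of the other genes, *YNK1* (-0.36, adjusted p = 0.219), *DUT1* (-0.27) and *URA6* (-0.20) had log2 fold changes below 0, and *DFR1* (0.35, adjusted p = 0.323), *CDC8* (0.22), *AAH1* (0.19), *DCD1* (0.19) and *CDC21* (0.02) above it, and none passed. The culture handling and the vehicle of these controls cannot be told apart.

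For both genes the agents set against these controls lay near their own control. *APT1* had 204, 129 and 223 with calicheamicin, 133, 187 and 144 with esperamicin A1 and 132, 253 and 166 with neocarzinostatin. *GUK1* had 858, 795 and 808 with calicheamicin, 826, 1042 and 1009 with esperamicin A1 and 919, 883 and 796 with neocarzinostatin. For *APT1* the irradiated and mock arrays lay between 229 and 315, and the enediyne and methanol arrays between 129 and 253, where neocarzinostatin replicate 2 was the array that overlapped. For *GUK1* the irradiated and mock arrays lay between 1171 and 1538, and the enediyne and methanol arrays between 782 and 1251, where the overlap came from methanol replicate 1. A test of any difference among the 6 groups passed for *YNK1* (adjusted p = 0.0210), *GUK1* (0.0228) and *APT1* (0.0375), 3 of 10 genes, against 918 of all genes (16.2%). The groups held 75.6% of the variance of *YNK1*, 76.3% of that of *GUK1* and 66.7% of that of *APT1*. *URA6* stood at the other end with 14.1% (adjusted p = 0.859), and none of its neighbouring groups differed by more than their spread.

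In the order of group means most neighbours did not differ beyond their spread. *YNK1* was highest with γ-radiation, 0.54 log2 units above neocarzinostatin, the next group, without overlap of arrays. It was lowest with methanol. *CDC8* was also highest with γ-radiation, 0.38 above calicheamicin, without overlap. *DFR1*, *DCD1* and *AAH1* were lowest with γ-radiation, but each overlapped mock irradiation, the group next above. Every irradiated array of *DCD1* lay below every calicheamicin and esperamicin A1 array, and so did every mock array.

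The genes differed in how reproducible they were. The SD of log2 intensity within groups was 0.65 for *AAH1* and 0.18 to 0.32 for the others. *AAH1* ran from 18.4 in γ-radiation replicate 3 to 116 in neocarzinostatin replicate 2, a 6.32-fold range. The others had ranges from 1.97-fold for *GUK1* to 2.97-fold for *DUT1*.

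Across the 18 arrays, which share groups and normalization, some of the genes varied together. Pearson's r of log2 intensity was 0.67 for *DFR1* with *AAH1*, 0.66 for *DFR1* with *DCD1*, 0.65 for *DUT1* with *GUK1* and 0.65 for *YNK1* with *APT1*. The lowest was -0.74 for *DFR1* with *YNK1*. Within groups, after group means were removed, *DFR1* with *AAH1* kept 0.57 and *DFR1* with *YNK1* kept -0.60, while *YNK1* with *APT1* had 0.28. The gene pair with the highest r within groups was *GUK1* with *URA6*, at 0.70, which was 0.32 without methanol replicate 1. *CDC8* and *CDC21*, consecutive enzymes of dTTP synthesis, had 0.19 across arrays and -0.19 within groups. Over all genes, the patterns most like that of *APT1* were those of YLL054C (r = 0.91), *MNR2* (0.91), *RPN13* (0.91), *HOL1* (0.90) and *ABF2* (0.89).

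**Figure D4:**
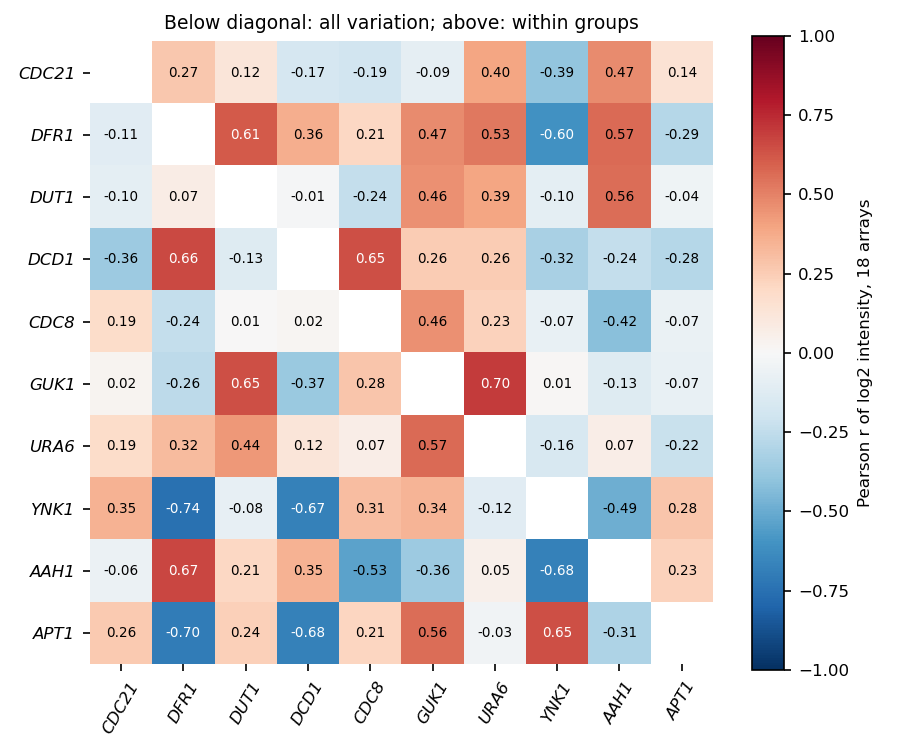
Pearson's r of log2 intensity between each pair of the 10 genes over 18 arrays. Values below the diagonal use all variation and values above it use the residuals within groups; *DFR1* with *YNK1* is the most negative pair in both, at -0.74 and -0.60.

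The surrounding pathways were measured on the same arrays to place the 10 genes. Of 10 genes of ribonucleotide reductase and its regulators, 5 rose with γ-radiation and none fell, with a list median of 0.87 on the log2 scale against -0.04 for all genes. They were the subunit genes *RNR3* (3.64), *RNR2* (1.10) and *RNR4* (0.78), *DUN1* (0.96), which encodes a checkpoint kinase that acts on the reductase, and *HUG1* (1.72), which encodes a small protein that binds it. Rises were made by 26 of all genes (0.46%) and falls by 25 (0.442%).

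Of the 24 other genes of DNA synthesis and its G1/S control, 5 rose and none fell, with a list median of 0.28. These were *RFA1* (1.26), *RFA2* (1.41) and *RFA3* (1.10), the subunits of replication protein A that cover single-stranded DNA, *POL1* (0.70), the catalytic subunit of DNA polymerase α, and *SMC3* (0.68), a cohesin subunit. *CDC8* and *CDC21*, at 0.62 and 0.61, lay just under the last of these in value but had larger standard errors. *SMC3* was dim, between 5.99 and 12.7 on all arrays, below the array medians.

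The lists of nucleotide synthesis held no called gene for γ-radiation, where 0.902% of all genes were called. None of 14 genes of folate and one-carbon supply passed (median -0.11), and the smallest p belonged to *FOL2* (-0.36, adjusted p = 0.477), which encodes GTP cyclohydrolase of folate synthesis. None of 16 genes of pyrimidine synthesis and salvage passed (median -0.09), with *URA7*, a CTP synthase gene, at -0.48 (adjusted p = 0.574). None of 19 genes of purine synthesis de novo, of 20 listed, passed (median 0.04), with *ADE1* at 0.36 (adjusted p = 0.696). None of 12 further genes of purine salvage and interconversion passed (median -0.00), with *HAM1*, which encodes a pyrophosphatase that removes non-canonical purine nucleotides, at -0.34 (adjusted p = 0.539). No gene of any of these lists passed for an enediyne, and neither did any other gene.

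**Figure D5:**
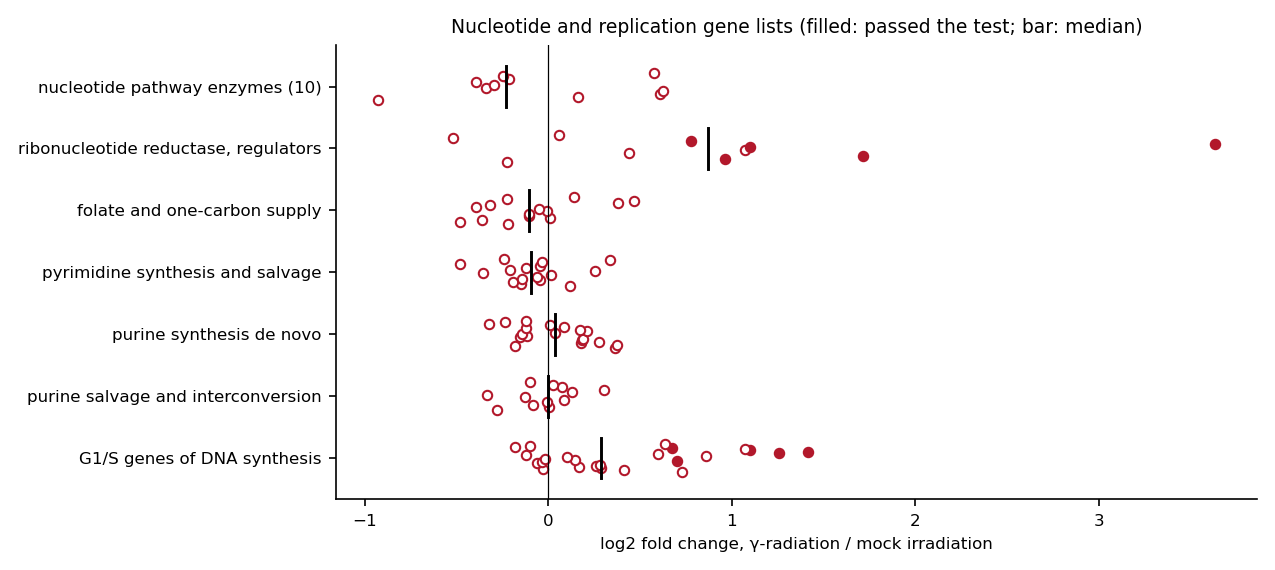
Log2 fold change for γ-radiation against mock irradiation of the 10 genes and of 6 lists of related genes, 1 point a gene; filled points passed the test and bars mark medians. Filled points occur in 2 lists, ribonucleotide reductase with its regulators and the G1/S genes of DNA synthesis, with *RNR3* at 3.64, and *RNR1* is a point of both lists.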

How the data were processed

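Total RNA of 18 cultures was hybridised to Affymetrix YG-S98 arrays. The authors made the deposited intensities with RMA, which applies background correction, quantile normalization and probe summary; the values are intensities on a linear scale, and their log2 was taken. Of 9335 probe sets, 60 are controls, 2443 have no gene symbol, 328 have several and 6504 have 1. Where a gene had several of the last kind, that of highest mean was kept, for 5656 genes in all. The study's filter on Absent/Present calls was not applied. No genome was used, and promoters and proteins were not analysed here.

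Comparisons were contrasts in 1 limma 3.58.1 model (R 4.3.3) of 6 groups, without a block, with 12 residual degrees of freedom and Benjamini-Hochberg adjustment over all genes. The threshold was a fold change of 1.5 and an adjusted p of 0.10. The smallest two-sided p of an exact permutation test of 3 arrays against 3 is 0.1. The fit was tested on simulated data. The local pooled error test was written from its description and its variance smoothing was adjusted on simulated data, after a first version had also been run on the arrays.

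Whether replicate numbers pair arrays was judged from residual correlations over all genes: 0.65, 0.50 and 0.67 for γ-radiation with mock irradiation, 0.17, 0.13 and 0.40 for calicheamicin, 0.37, 0.18 and 0.12 for neocarzinostatin and 0.19, 0.35 and -0.09 for esperamicin A1 with methanol. All pairs but 1 of esperamicin A1 exceed the limit of 0.1. The pairing comes from the values, not from the labels.

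All 10 genes are named. Of each related list, named genes were the 3 with the smallest adjusted p for γ-radiation, not all of which are described, and those called for an agent. The 5 genes most like *APT1* are named because it was called. The genes and lists were chosen with earlier results of these data known.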

Additional observations from a re-analysis of the deposited data

Results flagged for a closer look

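*DCD1*, which encodes dCMP deaminase, had log2 fold changes of opposite sign with γ-radiation and with 2 of the enediynes, none of which passed. It was flagged because its irradiated arrays lay to 1 side of their control mean and the arrays of the enediyne to the other side of theirs. The γ-radiation log2 fold change against mock irradiation was -0.34, and those of calicheamicin and esperamicin A1 against methanol were 0.10 and 0.18. The γ-radiation effect minus the calicheamicin effect was -0.44, and the γ-radiation effect minus the esperamicin A1 effect was -0.52. Neither difference was tested; against the mean of the enediynes the difference was -0.41 (adjusted p = 0.723 from limma).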

How the results depend on the processing

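No enediyne comparison called any of the 10 genes in any alternative. For γ-radiation the count was 0 in the other alternatives, but 3 with array weights (*CDC8*, *DUT1*, *AAH1*) and 1 each with the replicate block within each control family (*AAH1*), the local pooled error test (*AAH1*) and all 6 control arrays (*YNK1*). The γ-radiation minus mean enediyne effect called 1 gene (*AAH1*) with that block and 0 otherwise. The replicate block changed no other call of a single gene in an agent comparison. For methanol against mock irradiation, where *APT1* was called, the count was 2 with array weights (*DUT1*, *GUK1*), 2 without the fold threshold (*APT1*, *GUK1*), and 0 with cyclic loess, an adjusted p of 0.05, the compared groups alone and the local pooled error test; with the actin difference as a covariate, chosen after seeing the data, *GUK1* was called in place of *APT1*. With 1 array left out the count was 0 to 1, with *GUK1* called in place of *APT1* without methanol replicate 1 and without mock replicate 2 or 3. Of 5656 genes tested, 918 differed among the 6 groups, 3 of the 10 genes among them. These were 2806 and 9 with array weights, 919 and 5 with a replicate block over all arrays (*DCD1*, *DFR1*, *YNK1*, *APT1*, *GUK1*), and 968 and 4 with arrays centred on their medians (*DUT1* added). With 1 array left out the count was 3 to 7 of the 10 genes: 7 without methanol replicate 1, among 1310 genes, 5 without mock replicate 3, among 870, and 5 without γ-radiation replicate 1, among 799.

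Changes of sign, counted where the move exceeded the standard error, were found only in values that did not pass. Array weights turned neocarzinostatin to 0.085 for *GUK1* and 0.26 for *URA6*. The local pooled error test gave 0.19 for *URA6* with calicheamicin and, with neocarzinostatin, 0.069 for *GUK1* and 0.40 for *URA6*. All 6 control arrays gave *GUK1* 0.066 with γ-radiation and -0.26 with esperamicin A1, and *APT1* -0.18 with calicheamicin and -0.20 with neocarzinostatin. The actin covariate gave *URA6* 0.11 with calicheamicin and 0.24 with neocarzinostatin, and *CDC8* -0.082 for methanol against mock irradiation. With 1 array left out, the calicheamicin values ran from -0.23 to 0.31 for *CDC8*, from -0.32 to 0.015 for *GUK1* and from -0.32 to 0.18 for *URA6*. For esperamicin A1 *CDC8* ran from -0.34 to 0.20. For neocarzinostatin *APT1* ran from -0.10 to 0.36, *GUK1* from -0.25 to 0.092 and *URA6* from -0.23 to 0.27. For methanol against mock irradiation *CDC8* ran from -0.063 to 0.47 and *AAH1* from -0.33 to 0.52. The cause was not tested. The local pooled error test was not run for the γ-radiation minus enediyne effect, and the block within control families gives no methanol against mock value. *CDC8* lay between 8.14 and 18.6, where array medians were 15.3 to 16.8, so its values rest on dim signal.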
